A study of Mus musculus with 4 samples.

Results

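The cells described here are beta cells from Sel1L-knockout mouse islets that still carried at least 5 UMIs (unique molecular identifiers, each counting 1 captured RNA molecule) of Mafa, the transcription factor of mature beta cells that drives insulin gene expression. A cell was counted as a beta cell when Ins1 and Ins2, the 2 mouse insulin genes, held at least 10% of all its UMIs and glucagon (Gcg) and somatostatin (Sst) each held under 1%. Of 3860 such cells in the knockout libraries and 18612 cells in the series, 336 met the Mafa limit and are called Mafa-keeping cells below. Library KO-1 held 178 of them, 7.21% of its 2469 beta cells (exact 95% binomial interval 6.22% to 8.30%), and library KO-2 held 158, or 11.4% of 1391 (9.74% to 13.1%).

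The study dissociated islets of C57BL/6 mice with trypsin after overnight culture in RPMI medium with 11 mM glucose and sequenced them as 10x Genomics 3' single-cell libraries, 2 from wild type (Sel1L f/f) and 2 from knockout (Sel1L Ins1) mice, in which a Cre recombinase driven by the Ins1 gene removes Sel1L from beta cells. Mice of both genotypes are 7 weeks old by their sample entries, but 5 weeks old by the design text. Both genotypes carry the floxed allele and the knockout alone carries the Cre, so effects of the Cre itself, any on Ins1 included, cannot be told apart from loss of Sel1L. Nothing states that 2 libraries of a genotype came from separate animals, so the spread behind the p-values below may be technical. In comparisons with wild type it is the spread between libraries. Where the library is a block, it is how far the difference between classes varies from library to library. The libraries held 2483 to 5951 cells and 99156230 to 228515309 UMIs each. Any 2 libraries shared 1 to 9 cell barcodes, and 1 Mafa-keeping cell, in KO-1, had a barcode that also occurred in another library.

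SEL1L is the partner that stabilises the ubiquitin ligase HRD1 (gene Syvn1), and together they carry out ER-associated degradation (ERAD), the removal of misfolded proteins from the endoplasmic reticulum (ER). When misfolded proteins build up, the unfolded protein response raises ER chaperones such as BiP (gene Hspa5) through the transcription factors ATF6 and XBP1, and the integrated stress response raises ATF4 targets such as Trib3. Mafa is a late marker of beta cell maturation that, with Pdx1 and Nkx6-1, controls genes for glucose sensing and insulin release, and its RNA is readily lost in stressed beta cells. In mm10, Mafa lies on the minus strand at chr15:75745490-75748228 and Sel1l on the minus strand at chr12:91806043-91849157.

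The promoters of 4 ER stress genes are shown because these genes were higher in Mafa-keeping and in paired Mafa-zero cells than in wild type beta cells, and edgeR called none of them between the 2 knockout classes. Many other ER genes met this description too, so the 4 are examples and do not show how common the element is among such genes. Each line gives the 250 bases before the RefSeq start of the gene (GRCm38.p6), 5' to 3' on the gene's strand, with matches to the ER stress response element in capitals. The element was searched on both strands as CCAAT, 9 unspecified bases and CCACG, so that a match on the reverse strand starts with CGTGG and ends with ATTGG. The windows are chr2:34771840-34772089 (plus strand) for Hspa5, chr10:86705445-86705694 (minus) for Hsp90b1, chr10:75893148-75893397 (plus) for Derl3 and chr15:88819396-88819645 (plus) for Creld2.
Hspa5: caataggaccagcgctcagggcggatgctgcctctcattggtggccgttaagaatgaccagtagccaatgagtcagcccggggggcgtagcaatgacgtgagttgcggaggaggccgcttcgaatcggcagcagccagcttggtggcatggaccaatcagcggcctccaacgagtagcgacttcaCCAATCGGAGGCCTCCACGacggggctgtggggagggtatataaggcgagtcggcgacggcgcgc
Hsp90b1: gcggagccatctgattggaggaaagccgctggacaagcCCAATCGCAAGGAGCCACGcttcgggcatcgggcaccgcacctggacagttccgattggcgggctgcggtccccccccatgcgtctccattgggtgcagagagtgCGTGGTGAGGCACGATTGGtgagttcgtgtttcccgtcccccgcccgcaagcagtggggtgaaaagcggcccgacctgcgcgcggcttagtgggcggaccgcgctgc
Derl3: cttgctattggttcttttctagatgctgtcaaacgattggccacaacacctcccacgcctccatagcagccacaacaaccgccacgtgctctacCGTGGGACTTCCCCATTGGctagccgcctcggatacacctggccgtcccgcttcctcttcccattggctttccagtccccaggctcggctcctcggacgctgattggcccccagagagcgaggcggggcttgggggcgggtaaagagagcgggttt
Creld2: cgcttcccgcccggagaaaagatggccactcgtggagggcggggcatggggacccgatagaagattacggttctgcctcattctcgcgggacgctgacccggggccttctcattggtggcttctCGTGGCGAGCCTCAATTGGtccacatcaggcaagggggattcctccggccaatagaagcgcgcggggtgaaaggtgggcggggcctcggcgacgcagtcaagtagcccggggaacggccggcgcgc
The element began 65 bases before the start in Hspa5. Hsp90b1 held 2 matches, Derl3 1 and Creld2 1, the latter both on the reverse strand. It was present in 37 of 32851 RefSeq windows of this length (0.113%) and in 7 of the 30 ER chaperone and unfolded protein response genes with an entry. A match describes the letters and does not show binding.

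In wild type libraries 63.2% (WT-1) and 61.5% (WT-2) of beta cells had 5 or more Mafa UMIs, so the class that is the majority in wild type was a minority in the knockout. The rule sets this class and no test was made of its share. With 2 libraries a genotype an exact permutation test could not go below p = 0.33. The Mafa-keeping cells held a median of 8 Mafa UMIs in KO-1 (highest 57) and 7.5 in KO-2 (highest 55), against 12 in the wild type cells past the same limit in either library. Relative to all UMIs this was 180 and 163 CPM of Mafa (UMI counts per 1000000 UMIs) in the Mafa-keeping cells of KO-1 and KO-2, and 279 and 256 in the corresponding wild type cells. Since the rule sets a lower limit on Mafa in both genotypes, these values are a description and were not compared. Just inside the limit, with 5 UMIs, were 41 and 35 cells, and just outside it, with 4, were 75 and 62. At the other end of the rule, 1192 and 552 knockout beta cells had no Mafa UMI.

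**Figure D1:**
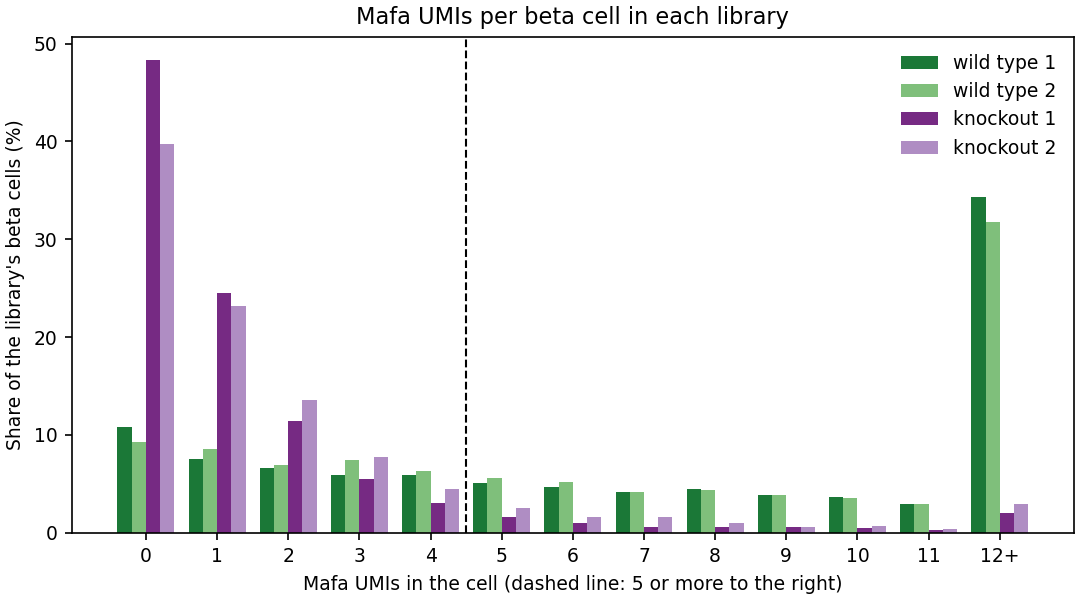
Share of each library's beta cells (vertical axis, percent) by the number of Mafa UMIs in the cell (horizontal axis, 12 or more in the last place), with 1 bar colour per library. The knockout libraries peak at 0 UMIs and keep 7.21% and 11.4% of cells to the right of the dashed line, against 63.2% and 61.5% in wild type.

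Some Mafa UMIs were found in cells of types that are not expected to express Mafa. Among knockout alpha cells, 3 of 737 in KO-1 (0.407%) and 2 of 324 in KO-2 (0.617%) had any Mafa UMI, in cells with a median of 25960.0 and 26798 UMIs against 51158 and 61058 in the Mafa-keeping cells. In KO-1, 5 of 147 endothelial cells (3.40%, median 9170 UMIs) and 1 of 84 macrophages (1.19%, median 16924 UMIs) had one, and in KO-2 0 of 150 and 0 of 59, which allows up to 2% and 5.08%. Wild type alpha cells had one in 4.23% (WT-1) and 4.27% (WT-2). Of these cells 0 had 5 or more, which allows up to 0.407% and 0.926% of knockout alpha cells and 2.04% and 2% of knockout endothelial cells, all shallower than the Mafa-keeping cells. With every cell thinned to 10000 UMIs, 0.821% of KO-1 and 1.18% of KO-2 beta cells had 5 or more Mafa UMIs, and 6.37% and 7.43% had 2 or more.

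Because deeper cells pass a UMI limit more easily, each Mafa-keeping cell was paired within its library with a Mafa-zero cell of nearly the same total (within 0.05 on the log10 scale), which left 174 pairs in KO-1 and 144 in KO-2. Insulin genes, which the rule also used, held a median of 45.2% and 48.9% of UMIs in paired Mafa-keeping cells, 40.8% and 44.4% in paired Mafa-zero cells, and 68.1% and 68.7% in wild type beta cells. The ratio of Ins1 to Ins2 UMIs was 0.197 and 0.206 in paired Mafa-keeping cells, 0.139 and 0.148 in paired Mafa-zero cells and 0.414 and 0.378 in wild type. These insulin values are a description, since the insulin share was part of the rule. Doublet calls took 6 Mafa-keeping cells in each library (3.37% and 3.80%), against 2.87% and 3.47% of paired Mafa-zero cells. Within the knockout, levels of Mafa-keeping cells are those of the paired cells. All levels below are CPM, computed over UMIs other than those of Mafa, Ins1, Ins2, Gcg and Sst, summed over the cells of a class in a library. A gene was called at an adjusted p under 0.05 (edgeR quasi-likelihood test, Benjamini-Hochberg adjustment over all genes tested), and log2 values are differences between classes.

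Within the knockout, Mafa-keeping cells carried more RNA of beta cell identity and maturity genes than paired Mafa-zero cells. Of the 31 genes of the identity list besides the rule genes, 20 were higher and none lower (23 and 0 at an unadjusted p under 0.05, edgeR), and the median log2 difference was 0.44, against a median of 0.00 over the 11641 genes tested. Across all genes 587 were called (5.04%), 269 higher (2.31%) and 318 lower (2.73%). DESeq2 called 54 genes in all and 11 higher and 0 lower on the identity list, and without the library as a block the edgeR test called 166 genes in all and 16 on this list. Library-size scaling alone gave 273 higher and 189 lower, and scaling by cell number gave 112 higher and 373 lower.

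The largest difference on the list was in Slc2a2, which encodes GLUT2, the glucose transporter through which rodent beta cells take up glucose (chr3:28697903-28731359). Its level was 138 in KO-1 and 114 in KO-2 Mafa-keeping cells, 45.7 and 42.6 in paired Mafa-zero cells, and 292 and 304 in wild type beta cells. Neither library of 1 class overlapped with those of another. The difference within the knockout was 1.48 on the log2 scale (SE 0.09, adjusted p = 1.18e-25, edgeR). Ucn3, which encodes urocortin 3, a peptide that mature beta cells release to act on delta cells, was at 112 and 113 in Mafa-keeping cells, at 32.2 and 56.2 in Mafa-zero cells and at 308 and 267 in wild type. It rose by 1.34 (SE 0.10, adjusted p = 2.17e-20, edgeR), although DESeq2 gave an adjusted p of 0.0979 for it. G6pc2, a glucose-6-phosphatase that sets the beta cell's glucose sensitivity, had 359 and 378, 197 and 228, and 774 and 688 in the same order, a log2 difference of 0.76 within the knockout (SE 0.07, adjusted p = 1.75e-15, edgeR). For these 3 genes the Mafa-keeping cells lay above the Mafa-zero cells and below wild type in both libraries.

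Transcription factors of the beta lineage divided. Pdx1, needed for the formation and upkeep of beta cells, was at 153 and 130 in Mafa-keeping cells, 81.1 and 82.3 in Mafa-zero cells and 181 and 181 in wild type, and rose by 0.76 within the knockout (SE 0.08, adjusted p = 3.53e-13, edgeR). Nkx2-2, a homeodomain factor of the same lineage, rose by 0.65, Neurod1, a basic helix-loop-helix activator of insulin, by 0.32 and Nkx6-1, which represses alternative islet fates, by 0.26. Neurod1, Nkx2-2 and Nkx6-1 were not called by DESeq2. Isl1, an early islet factor, had 293 and 257 in Mafa-keeping and 280 and 273 in Mafa-zero cells, values that overlapped, and was not called (log2 -0.05, adjusted p = 0.830, edgeR). Not every gene of the list was called. Iapp, which encodes the islet amyloid peptide secreted with insulin, was at 107100 and 101900 against 101500 and 100100 (log2 0.01), and was not called.

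Further genes of the identity list encode channels and receptors. Abcc8 and Kcnj11 encode the subunits of the ATP-sensitive potassium channel that couples glucose metabolism to membrane potential. Abcc8 was at 403 and 359 in Mafa-keeping cells, 242 and 202 in Mafa-zero cells, and 327 and 332 in wild type. Kcnj11 was at 34.4 and 33.9, 19.7 and 17.8, and 39.0 and 37.6 in the same order. Abcc8 thus reached above both wild type libraries in Mafa-keeping cells, and Kcnj11 came close to wild type. Within the knockout Abcc8 rose by 0.74 (adjusted p = 3.78e-15, edgeR) and Kcnj11 by 0.82 (adjusted p = 8.1e-06, edgeR; not called by DESeq2). Ffar1, a fatty acid receptor that enhances insulin release, rose by 0.85, Trpm5, a calcium-activated cation channel, by 1.20, and Prlr, the prolactin receptor, by 0.64. Prlr stayed far from wild type, at 207 and 197 against 494 and 482.

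The hormone granule and exocytosis list held 24 tested genes, of which 7 were higher and none lower in Mafa-keeping cells, with a median of 0.14. Sytl4, which encodes granuphilin, a docking protein of insulin granules, was at 84.1 and 81.4 against 31.8 and 48.0 in Mafa-zero cells and rose by 1.04. Vgf, a secreted granule protein, rose by 1.01 and Slc30a8, the zinc transporter of insulin granules, by 0.54. Outside this list, Pcsk1, the prohormone convertase that cleaves proinsulin, rose by 0.63 and Ero1lb, the pancreatic ER oxidase that supports disulfide formation in proinsulin, by 0.67. Among all genes, the largest rises included Cbs (cystathionine beta-synthase), at 20.4 and 26.2 against 7.21 and 7.10 (log2 1.65), Ppp1r1a, an inhibitor of protein phosphatase 1, at 142 and 157 against 55.8 and 67.5 (log2 1.24), and Prss53, a serine protease, at 160 and 179 against 80.4 and 80.0 (log2 1.04).

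**Figure D2:**
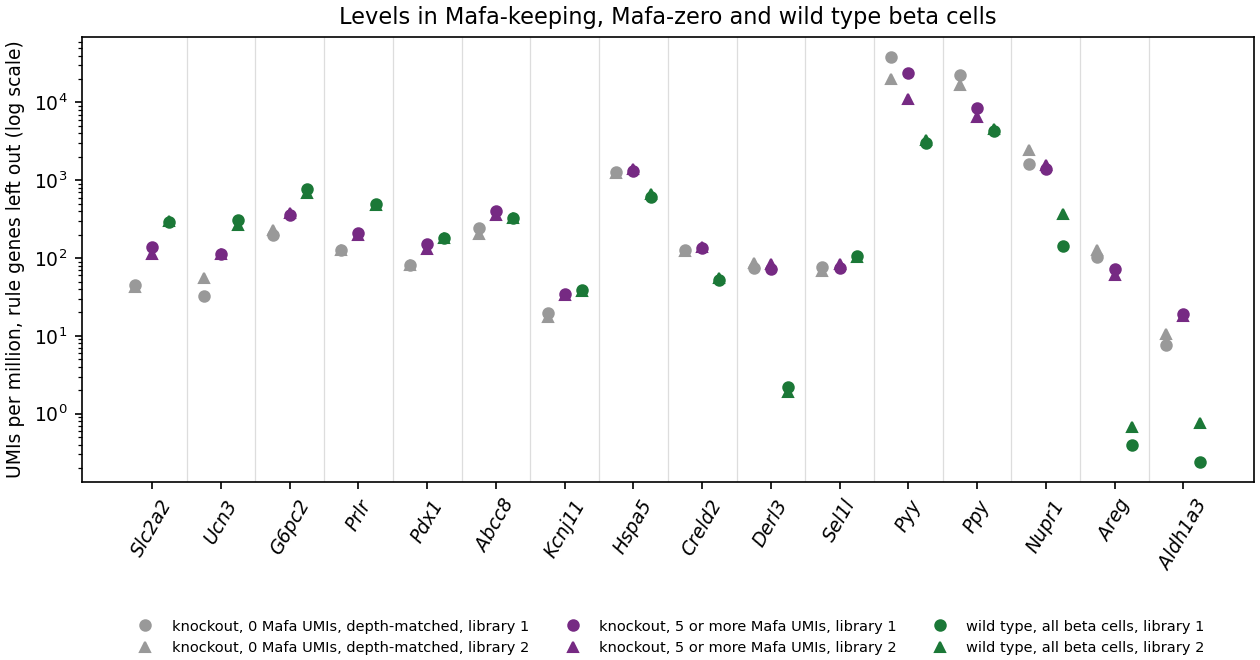
Levels of 16 genes in CPM with rule genes left out (vertical axis, log scale), with 1 point per library for Mafa-keeping, paired Mafa-zero and wild type beta cells. Slc2a2 stands at 138 and 114 in Mafa-keeping cells between 45.7 and 42.6 in Mafa-zero and 292 and 304 in wild type cells, while Derl3 stands at 71.4 and 84.7, 73.9 and 87.7, and 2.24 and 1.89.

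Genes of the ER chaperone and unfolded protein response list, in contrast, were at nearly the same level in Mafa-keeping and Mafa-zero cells. Of 38 genes tested, edgeR called 2 higher and none lower (2 and 2 at an unadjusted p under 0.05) and DESeq2 called 0, with a median log2 difference of 0.01. Hspa5, the main ER chaperone BiP, was at 1308 and 1411 in Mafa-keeping cells, 1262 and 1235 in Mafa-zero cells, and 610 and 673 in wild type. Derl3, a stress-induced Derlin of the ERAD channel, was at 71.4 and 84.7, 73.9 and 87.7, and 2.24 and 1.89. The knockout classes overlapped for Derl3 and both were far above wild type for each gene. Within the knockout Hspa5 differed by 0.08 (SE 0.07, adjusted p = 0.679, edgeR) and Derl3 by -0.09 (SE 0.08, adjusted p = 0.693, edgeR). Creld2, an ER stress-induced disulfide isomerase, was at 135 and 139 against 126 and 123 (log2 0.10), and Hsp90b1, the ER chaperone GRP94, at 919 and 1029 against 929 and 903 (log2 0.05), neither called. The 2 called genes were Hyou1, a large ER chaperone (log2 0.28, adjusted p = 0.00399, edgeR), and Canx, the lectin chaperone calnexin (log2 0.22, adjusted p = 0.0319, edgeR).

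Of 31 ERAD genes edgeR called none between Mafa-keeping and Mafa-zero cells. At an unadjusted p under 0.05 it found 0 higher and 4 lower, and DESeq2 called 0. Sel1l was at 73.7 and 84.1 in Mafa-keeping cells, 76.4 and 68.5 in Mafa-zero cells, and 105 and 102 in wild type. The knockout classes overlapped and both lay below wild type (log2 0.07 within the knockout, SE 0.09, adjusted p = 0.767, edgeR). The libraries count the 3' ends of transcripts, and whether the deleted exons reach that end is not given in the sources used here, so Sel1l UMIs do not show which cells carried the deletion.

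Pyy, Ppy, Areg, Txnip and Nupr1 were lower in Mafa-keeping than in Mafa-zero cells, although above wild type in each library. Of 20 genes that earlier results of these data named as raised in knockout beta cells, which is no independent evidence, 7 were lower, 1 higher and 12 not called. Pyy and Ppy encode peptide YY and pancreatic polypeptide, gut and islet hormones that mature beta cells express little. Pyy was at 23760 and 11080 in Mafa-keeping cells, 38460 and 20080 in Mafa-zero cells, and 3052 and 3276 in wild type. Its level in KO-1 Mafa-keeping cells exceeded that in KO-2 Mafa-zero cells, so the classes separated only within a library. The difference was -0.82 (SE 0.10, adjusted p = 1.58e-09, edgeR), and it was not called without the library block (adjusted p = 0.344). Ppy was at 8383 and 6553, 22540 and 16540, and 4359 and 4507, with no overlap (log2 -1.42, SE 0.10, adjusted p = 1.59e-21, edgeR). Ppy and Pyy are neighbours on chromosome 11.

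Areg, which encodes the EGF family ligand amphiregulin, was at 72.3 and 60.3 in Mafa-keeping cells, 103 and 127 in Mafa-zero cells, and 0.40 and 0.67 in wild type (log2 -0.81 within the knockout). Txnip, an inhibitor of thioredoxin, was at 358 and 345, 511 and 448, and 154 and 125 (log2 -0.49). Nupr1, a stress-induced chromatin protein, was at 1380 and 1551, 1619 and 2454, and 141 and 366 (log2 -0.49), a call that was lost with DESeq2, with a Mafa limit of 3 UMIs and without the library block. All 3 stood above wild type in both knockout classes.

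Of 33 integrated stress response targets, edgeR called 6 lower and none higher in Mafa-keeping cells (12 and 2 at an unadjusted p under 0.05), with a median of -0.17, and DESeq2 called 0. Trib3, a pseudokinase induced by ATF4, was at 73.5 and 83.6 against 94.1 and 102 (log2 -0.36). Eif4ebp1, a translation repressor, fell by 0.28 on the log2 scale, Phgdh, the first enzyme of serine synthesis, by 0.28 and Asns, asparagine synthetase, by 0.23. None of these 4 was called by DESeq2 or without the library block. Ddit3, the ATF4 partner CHOP, was at 175 and 163 against 193 and 182 and was not called (adjusted p = 0.120, edgeR). Against wild type, edgeR called 4 of 34 targets higher and 15 lower in Mafa-keeping cells (median -0.25). In Mafa-zero cells it called 8 higher and 15 lower (median -0.21). Lower levels than in Mafa-zero cells were thus not always nearer to wild type. Mafa-keeping cells lay between Mafa-zero and wild type cells for 17 of 33 targets, beyond wild type for 2 and beyond the Mafa-zero cells for 14.

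Markers of immature or dedifferentiated beta cells did not move one way. Of 13 tested genes, 2 were higher and 2 lower. Aldh1a3, a retinaldehyde dehydrogenase used as a marker of dedifferentiated beta cells, was at 19.2 and 18.2 in Mafa-keeping cells, 7.74 and 10.7 in Mafa-zero cells, and 0.24 and 0.77 in wild type. Its summed level was thus highest in the cells that kept Mafa, without overlap (log2 1.002, SE 0.19, adjusted p = 6.92e-05, edgeR). This call was lost with DESeq2, with a Mafa limit of 3 UMIs and with cells matched on UMIs other than insulin. Knockout beta cells with 10 or more Mafa UMIs were at 31.9 in KO-1 and 24.55 in KO-2. Those with 5 to 9 were at 9.93 and 12.2, with 2 to 4 at 10.5 and 7.78, and with 0 at 7.15 and 7.97, untested. Any Aldh1a3 UMI was found in 27.0% and 22.2% of Mafa-keeping cells and in 19.0% and 16.7% of paired Mafa-zero cells. The binomial intervals of these shares overlapped within each library. Igf1r, the IGF1 receptor, rose by 0.85. Bambi, a decoy receptor that dampens TGF-beta signalling, was at 119 and 103 against 162 and 141 (log2 -0.49), and Nfatc1, a calcium-regulated transcription factor, was lower by -0.64. Neurog3, the endocrine progenitor factor, was at 11.7 and 9.86 against 12.1 and 7.73 and was not called, with both classes above the 0.92 and 0.70 of wild type.

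Of 26 tested TGF-beta pathway genes, 2 were higher, 3 lower and 21 not called. Acvr1c, the type I activin receptor ALK7, rose by 0.67 and Tgfbr1, the type I TGF-beta receptor, by 0.58, while Bambi and Klf10, a TGF-beta-induced repressor, were lower by -0.49 and -0.47. DESeq2 called none of these 4.

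Cell cycle genes were lower in Mafa-keeping cells than in the depth-paired Mafa-zero cells, with 12 of 26 lower, 1 higher and a median of -0.67. Mki67, a proliferation marker, was at 19.1 and 22.2 against 42.6 and 53.3, and Top2a, the topoisomerase of dividing cells, at 28.3 and 11.2 against 52.4 and 61.0. The direction depended on the Mafa-zero cells chosen. Against all Mafa-zero cells the list gave 7 higher and 1 lower, with Top2a at 0.25, Mki67 at 0.20 and Cdk1 at 0.27 on the log2 scale. With a Mafa limit of 3 UMIs it gave 0 higher and 0 lower, and with matching on UMIs other than insulin 1 and 1.

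Some endothelial and matrix genes were also lower in Mafa-keeping cells. Timp3 and Sparc, both of extracellular matrix biology, fell by 3.24 and 2.63 on the log2 scale, and of 5 tested endothelial markers 4 were lower and none higher. Kdr, the VEGF receptor of endothelium, was at 4.23 and 0.90 against 20.6 and 1.88, and Pecam1, the junction protein CD31, at 1.92 and 0.22 against 9.32 and 2.51. The 8 endothelial markers summed to 27.3 in KO-1 and 11.7 in KO-2 Mafa-keeping cells and to 107 and 18.4 in paired Mafa-zero cells, with Cdh5 and Tie1 at 0 in KO-2 Mafa-keeping cells. Over all Mafa-zero cells they summed to 38.5 and 32.2, so the size of this gap depended on the Mafa-zero cells chosen. The 8 macrophage markers summed to 157 and 54.9 against 45.4 and 163, opposite in the 2 libraries. Acinar markers summed to 1.35 or less in every paired class, with at least 5 of the 8 at 0. The part of such cells in the differences was not tested. Leaving out doublet calls gave 641 called genes.

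Against wild type, Mafa-keeping cells still differed widely. Of 14038 genes tested, 3260 were called (23.2%), 1618 higher (11.5%) and 1642 lower (11.7%). The paired Mafa-zero cells, set against the same wild type libraries, gave 4016 of 14160 (28.4%), 1983 higher (14.0%) and 2033 lower (14.4%). The number for Mafa-keeping cells rested on both wild type libraries, since it was 389 without WT-1 and 0 without WT-2, with 3316 genes at an unadjusted p under 0.05 in the latter.

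On the identity list, 16 of 31 genes were lower than wild type in Mafa-keeping cells, 2 were higher and the median was -0.45, while for Mafa-zero cells 21 were lower, none was higher and the median was -0.92. Ordering the 3 class levels, Mafa-keeping cells lay between Mafa-zero and wild type cells for 21 of the 31 genes, beyond wild type for 8 and beyond the Mafa-zero cells for 2. Scaled by the number of cells, Mafa-keeping cells had more RNA of most genes than wild type, with a median log2 shift of 1.07 over all genes, and the identity list then read 21 higher and 3 lower with a median of 0.63, below that shift. Slc2a2 stood at -1.31, Ucn3 at -1.39, G6pc2 at -1.02, Prlr at -1.33, Nkx6-1 at -0.83 and Pdx1 at -0.47 against wild type. Of these, Nkx6-1, G6pc2 and Pdx1 turned positive (0.24, 0.05 and 0.59) when scaled by cell number, each below the shift of all genes. The call of Pdx1 was also lost without KO-2 and with a Mafa limit of 10 UMIs.

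Some identity genes were not called between Mafa-keeping and wild type cells. The difference was 0.12 for Abcc8 (SE 0.10, adjusted p = 0.417, edgeR), -0.23 for Kcnj11 (SE 0.09, adjusted p = 0.114, edgeR), -0.29 for Ffar1 (SE 0.09, adjusted p = 0.0621, edgeR) and -0.15 for Neurod1 (SE 0.12, adjusted p = 0.421, edgeR). In the Mafa-zero cells the same genes stood at -0.62 for Abcc8, -1.08 for Kcnj11, -1.14 for Ffar1 and -0.50 for Neurod1, each called. These values do not show that the 4 genes were at wild type level.

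ER stress genes set both knockout classes apart from wild type. In Mafa-keeping cells 30 of the 38 ER chaperone and unfolded protein response genes were higher than wild type and none was lower (median 0.50), and in Mafa-zero cells 31 were higher and none lower (median 0.58). Derl3 was higher by 5.10, Kdelr3, a receptor that returns escaped chaperones to the ER, by 2.97, Creld2 by 1.23, P4hb, protein disulfide isomerase, by 1.03 and Hspa5 by 0.96, the last 4 from 60.7 and 54.7, 134 and 131, 550 and 609, and 1307 and 1344 CPM over all Mafa-keeping cells, the class that was set against wild type. Of 31 ERAD genes, 15 were higher and 1 lower (median 0.28), with Edem1, which guides misfolded glycoproteins to degradation, at 0.87, Syvn1 at 0.80 and Sel1l itself lower by -0.45 (SE 0.09, adjusted p = 0.00858, edgeR). The ER list counted 11 without WT-1 and 0 without WT-2, with the median staying at 0.44 and 0.62.

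Other groups placed the Mafa-keeping cells on the knockout side as well. Pyy (2.34), Areg (6.82), Nupr1 (2.44), Aldh1a3 (5.00) and Neurog3 (3.60) were all higher than wild type, and Ppy was higher by 0.60, although it stood at -0.43 when only cells with 10 or more Mafa UMIs were used. Of 31 proteasome genes 27 were lower than wild type in Mafa-keeping cells and 27 in Mafa-zero cells. Of 20 cholesterol synthesis genes, 11 and 15 were lower. Between the knockout classes edgeR called 0 of 31 proteasome genes, with 0 higher and 2 lower at an unadjusted p under 0.05, and DESeq2 called 0. Of the cholesterol genes, 1 was higher and 1 lower between those classes.

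**Figure D3:**
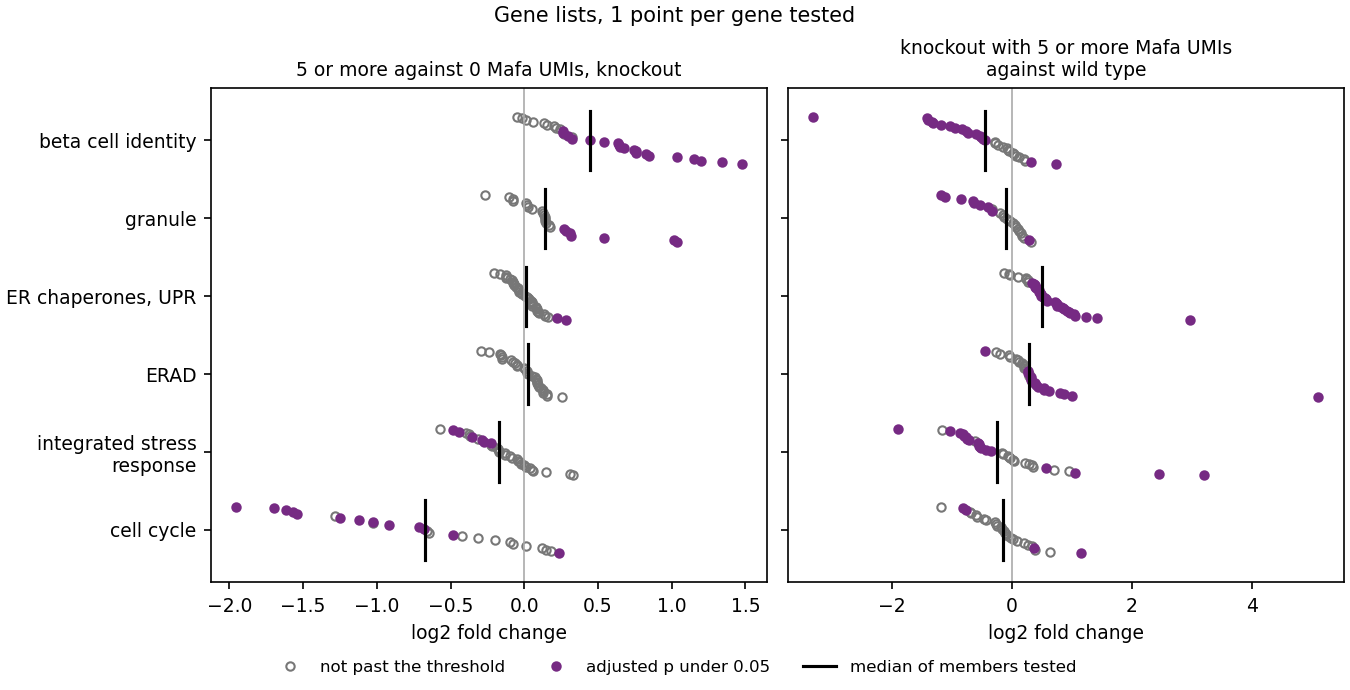
Log2 fold changes of the genes of each list (horizontal axis, 1 point per gene, called genes marked by colour) for Mafa-keeping against paired Mafa-zero cells (left) and Mafa-keeping against wild type (right). The identity list has its median at 0.44 and -0.45 in these comparisons, the latter turning above 0 when sums are scaled by cell number. The ER chaperone list has its median at 0.01 and 0.50.

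Identity genes were at higher levels in knockout cells with more Mafa UMIs. Across knockout beta cells with 0, 1, 2 to 4, 5 to 9 and 10 or more Mafa UMIs, Slc2a2 was at 42.1, 58.2, 68.8, 114 and 180 in KO-1 and at 40.3, 53.6, 75.9, 99.6 and 145 in KO-2. Ucn3 ran from 40.8 to 157 in KO-1 and from 48.4 to 147 in KO-2. Pdx1 ran from 83.2 to 201 and from 76.0 to 155, with the top bin of KO-1 at the 200 of WT-1 cells with as much Mafa. Derl3, in contrast, stayed within 68.2 to 73.3 in KO-1 and 76.5 to 86.2 in KO-2. Hspa5 and Creld2 were higher in the top bin only. Hspa5 was at 1484 there in KO-1 and 1481 in KO-2, against 1195 to 1248 and 1244 to 1273 in the lower bins. Creld2 was at 170 and 143, against 111 to 128 and 121 to 129. These bins share their libraries, their depth grows with Mafa (median 40305 to 51352 UMIs in KO-1), and they were not tested.

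**Figure D4:**
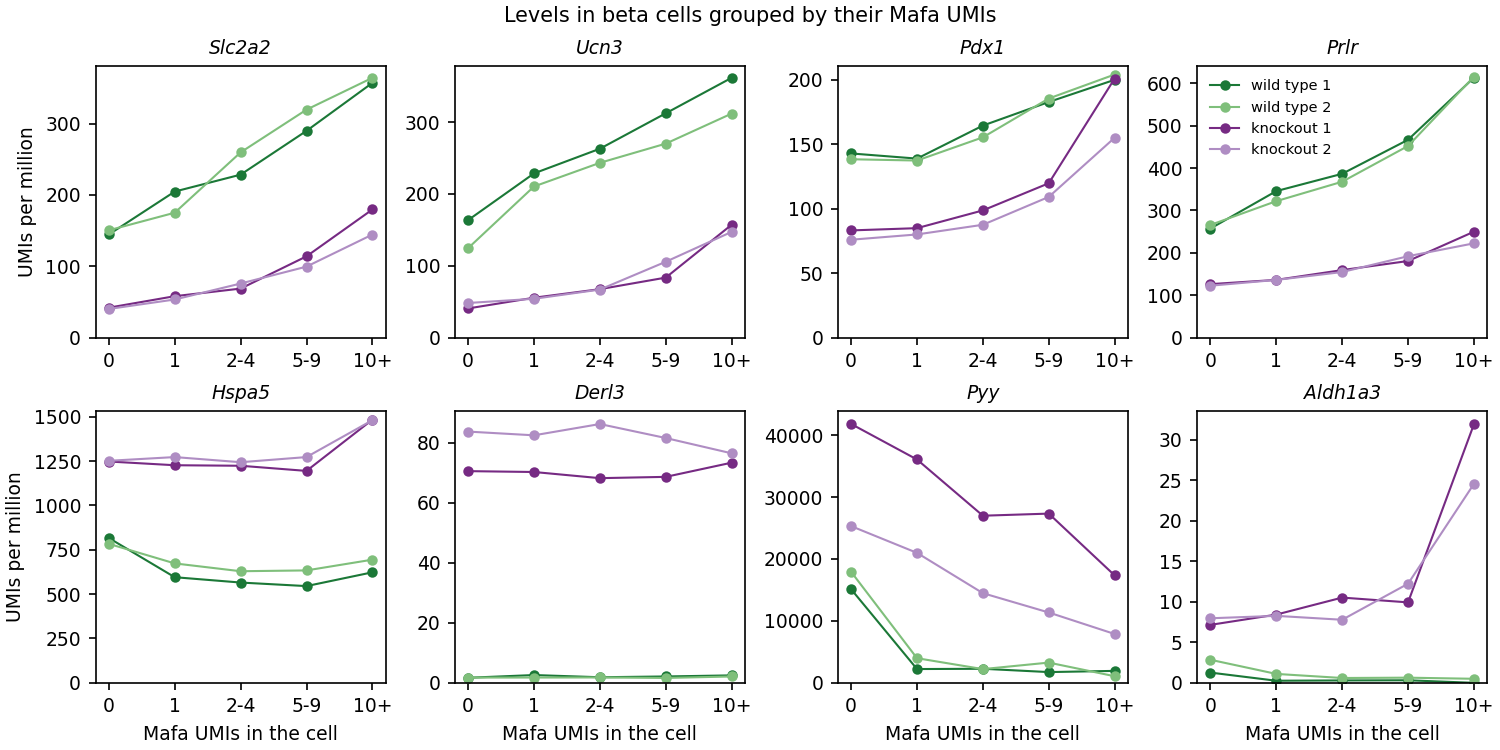
Levels in CPM (vertical axes, starting at 0) in beta cells grouped by their Mafa UMIs (horizontal axes), with 1 line per library and 1 panel per gene. Slc2a2 goes from 42.1 to 180 in KO-1 and from 145 to 357 in WT-1, while Derl3 stays between 68.2 and 86.2 in the knockout and under 3 in wild type. Hspa5 is highest in the top bin of both knockout libraries, at 1484 and 1481.

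The same contrast was made in wild type, between 363 and 302 depth-paired beta cells with 5 or more and with 0 Mafa UMIs, to see which differences go with Mafa where Sel1L is intact. Of 11347 genes 664 were called (5.85%), 322 higher (2.84%) and 342 lower (3.01%). On the identity list 18 of 31 were higher and none lower, with a median of 0.41 beside 0.44 in the knockout. Slc2a2 was higher by 1.28, Ucn3 by 1.13, G6pc2 by 0.97, Prlr by 1.12 and Pdx1 by 0.62. For Slc2a2 the wild type levels were 354 and 410 with Mafa and 147 and 155 without, so the wild type cells without Mafa stood above the knockout cells that kept it. Markers of other cells differed as well. In wild type cells with Mafa 4 of 6 tested macrophage markers, 4 of 6 alpha cell markers and 3 of 3 PP cell markers, Pyy and Ppy included, were lower and none higher. The part of such cells in the wild type differences and in the interactions below was not tested.

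The difference between genotypes in this contrast was tested as an interaction, with positive values where Mafa-keeping cells stood higher relative to Mafa-zero cells in the knockout than in wild type. It called 90 of 11869 genes (0.758%), 46 higher (0.388%) and 44 lower (0.371%). Slc2a2 (0.18, adjusted p = 0.670), Ucn3 (0.20, adjusted p = 0.752) and Pdx1 (0.13, adjusted p = 0.784, all edgeR) were not called, with standard errors of 0.11, 0.16 and 0.11. On the identity list 5 genes were called. Abcc8 differed by 0.61 (adjusted p = 0.000153, edgeR), as it was at 364 and 386 with Mafa and 328 and 337 without in wild type, a smaller gap than in the knockout. Kcnj11 differed by 0.74 (adjusted p = 0.0436, edgeR), a call that was lost without KO-1, KO-2 or WT-1. Prlr (-0.49), Nkx6-1 (-0.38) and Ero1lb (-0.37) differed the other way. Prlr was not called without WT-1, Ero1lb without KO-1, KO-2 or WT-1, and Nkx6-1 without any 1 of the 4 libraries.

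The integrated stress response list ran in opposite directions in the genotypes. In wild type 12 of 32 targets were higher and 1 lower in cells with Mafa, in the knockout none was higher and 6 were lower, and the interaction called 7 of 34 lower and none higher (18 and 0 at an unadjusted p under 0.05, edgeR). DESeq2 called 0 of these targets in either genotype and 0 for the interaction. Trib3 was at 74.8 and 70.6 in wild type cells with Mafa and 40.4 and 49.96 in those without, against 73.5 and 83.6 and 94.1 and 102 in the knockout, an interaction of -1.005 (adjusted p = 0.000142, edgeR). Phgdh gave -0.93 and Atf5, a stress-regulated transcription factor, -0.63. Hspa5 was lower in wild type cells with Mafa (593 and 674 against 828 and 786, log2 -0.41) and not called in the knockout, with an interaction of 0.48 (adjusted p = 0.0124, edgeR; 0.614 without WT-1). Pyy was lower with Mafa in both genotypes, by -3.15 in wild type and -0.82 in the knockout, and the interaction was 2.32 (adjusted p = 5.28e-05, edgeR; 0.213 with DESeq2). For Aldh1a3, wild type levels were 0.00 and 0.25 with Mafa and 1.34 and 3.01 without, the reverse of the knockout order, with an interaction of 4.95 (adjusted p = 0.00339, edgeR; 0.0572 without WT-1).

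Each cell was then placed between the genotypes by a signature share. For each library, 50 genes each way with the largest ratio between Mafa-zero knockout and wild type beta cells were taken from the pair of libraries with the other number, and the share of a cell's signature UMIs that fell on the wild type side was computed. Hormone and peptide genes, chiefly Pyy and Ppy, held most signature UMIs on the knockout side, so the share without them is given first, a choice made after the values were seen. Mafa-keeping cells had a median share of 32.1% in KO-1 and 32.5% in KO-2, against 22.8% and 21.1% in paired Mafa-zero cells and 67.7% and 71.5% in wild type beta cells. With those genes kept, the medians were 14.3% and 26.2%, 6.59% and 11.6%, and 68.1% and 70.8%. By either share the typical Mafa-keeping cell stood on the knockout side, above its Mafa-zero partners. The signature set Mafa-zero knockout cells against wild type cells, most of which held Mafa. Its wild type side thus included genes that also differed with Mafa within wild type, such as Slc2a2 and Ucn3. That Mafa-keeping cells had higher shares than Mafa-zero cells, and more often high ones, is therefore partly built in and no independent evidence.

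Without peptide genes, the central 95% of wild type beta cells began at a share of 42.0% in WT-1 and 44.3% in WT-2. Of the Mafa-keeping cells 29 of 178 (16.3%) in KO-1 and 31 of 158 (19.6%) in KO-2 reached that bound, with 31 and 15 cells lying within 5 points of it, compared with 1 of 174 and 4 of 144 paired Mafa-zero cells. With peptide genes kept the wild type range began far lower, at 9.42% and 11.8%, and held 124 of 178 (69.7%) and 132 of 158 (83.5%) Mafa-keeping cells and 37.4% and 48.6% of paired Mafa-zero cells, so the number of cells inside the range depended on this choice. When the cells that reached the bound by the share without peptide genes were left out of both classes, an alternative chosen after seeing the data, 18 identity genes were higher and none lower in Mafa-keeping cells (median 0.36), with Slc2a2 at 1.14, Ucn3 at 1.14, G6pc2 at 0.56, Pdx1 at 0.75, Aldh1a3 at 1.12 and Ppy at -1.34. The identity difference within the knockout was therefore also present among cells outside that range.

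**Figure D5:**
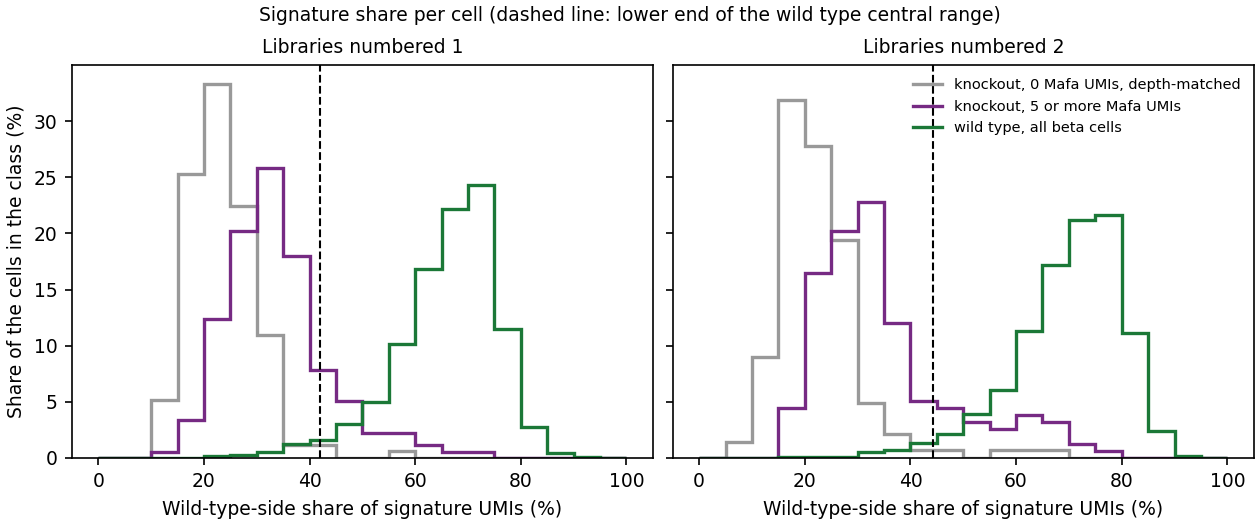
Distribution of the wild-type-side share of signature UMIs per cell without peptide genes (horizontal axis, percent; vertical axis, share of the cells of a class) for Mafa-keeping, paired Mafa-zero and wild type beta cells of the libraries numbered 1 (left) and 2 (right). Mafa-keeping medians of 32.1% and 32.5% lie left of the dashed lower bounds of 42.0% and 44.3%, with a tail of 29 and 31 cells to the right of them.

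A few cells lay near the centre of the wild type cells. Mafa-keeping cells with a share of at least 55%, a limit chosen after the values were seen, numbered 8 in KO-1 and 18 in KO-2, with 8 and 9 Mafa-keeping cells between 50% and 60%. In wild type 88.3% and 91.2% of beta cells passed it. ER chaperone genes that were not in the signature summed to a median of 10.3 and 9.47 UMIs per 1000 in these cells, against 9.79 and 9.74 in wild type beta cells and 17.5 and 14.2 in paired Mafa-zero cells. By this sum the 8 and 18 cells thus lay near wild type. Knockout beta cells past the same share had 9.82 and 9.65 with 1 to 4 Mafa UMIs and 7.70 and 10.95 with none. A low sum was thus not particular to Mafa-keeping cells. Its genes did not enter the share, but other ER stress genes did, so it may partly follow from the choice of cells. In the 8 and 18 cells Hspa5 was at 545 and 645, beside 610 and 673 in wild type, but it was in the signature that scored KO-2. Derl3, in both signatures, was at 4.01 and 9.38. These cells were deep, with medians of 82270.5 and 82298.5 UMIs against 51158 and 61058 in all Mafa-keeping cells and 46913 and 49879 in wild type beta cells, and 0 doublets were called among them. The part of depth in these values was not tested. The ratio of Ins1 to Ins2 was 0.215 and 0.207, as in the other Mafa-keeping cells and below the 0.414 and 0.378 of wild type. In this ratio an effect of the Cre on Ins1 cannot be told apart. Mitochondrial UMIs held a median of 3.80% and 2.62%, above the 1.74% and 1.70% of wild type. Insulin genes, part of the rule, held a median of 63.1% and 65.7% of UMIs, beside 68.1% and 68.7% in wild type. Pyy, left out of this signature, was at 3777 and 4564, beside 3052 and 3276 in wild type. Ppy, also left out, was at 709.7 and 549.5, below the 4359 and 4507 of wild type.

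Sel1l was counted with 5 UMIs over the 8 cells of KO-1 and 67 over the 18 cells of KO-2, or 20.1 and 126 CPM, on either side of the 105 and 102 of wild type. These counts do not check the deletion, and whether these cells escaped it cannot be told from the files. A share of 55% was also reached by 11 and 5 knockout beta cells with 1 to 4 Mafa UMIs and by 3 and 6 with none, which is 1.001% and 0.734%, and 0.252% and 1.09%, of those classes, against 4.49% and 11.4% of the Mafa-keeping cells. The Mafa-zero class as a whole was shallower, with medians of 40305 and 45082 UMIs. Among the depth-paired Mafa-zero cells, 1 of 174 and 3 of 144 reached this share.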

How the data were processed

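The deposited tables hold raw UMI counts per gene and cell barcode, with 19074 genes in each, from islets of 2 wild type and 2 knockout libraries. Reads were processed with Cell Ranger 3.0.0 and Seurat 2.3.4 on mm10, per the submitters' processing notes, and the counts are as the authors deposited them.

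Counts were summed per library and class, without the rule genes, and tested with edgeR 4.0.16 (TMM, filterByExpr, quasi-likelihood test, Benjamini-Hochberg adjustment, R 4.3.3), with the library as a block where both classes came from the same libraries. DESeq2 1.42.0 and other settings were alternatives, and the scripts were tested on simulated data. Doublets were called with Scrublet (scanpy 1.11.5, expected rate 0.8% per 1000 cells) and kept. Sums with 2 libraries a class rest the error on few residual degrees of freedom, so edgeR shares its spread across genes. Depth was 99156230 to 228515309 UMIs per library. Intervals and limits for a count of 0 cover counting error only.

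The members, the gene lists and the lists' directions were chosen with earlier results of these data known. Genes named by rule were Sel1l, a panel of 20, and in each comparison of Mafa-keeping cells the 10 strongest calls in either direction, if the higher group reached 20 CPM and every pair of libraries moved alike. Sex-linked and mitochondrially encoded genes could not enter. From each list 4 calls at most entered, by lowest p, and from the difference between genotypes the 5 lowest p in either direction. Other genes (Kcnj11, Ffar1, Prlr, Nkx2-2, Neurod1, Isl1, Pcsk1, Ero1lb, Iapp, Hsp90b1 and further genes given with their level or difference) were chosen after their values were seen. Gene coordinates come from GENCODE vM21, in which 18826 of the 19074 symbols were found, and promoters from RefSeq (GRCm38.p6).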

Additional observations from a re-analysis of the deposited data

Results flagged for a closer look

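The change from Mafa-zero to Mafa-keeping beta cells differed between the genotypes by the interaction test for the genes below, given as the log2 change in the knockout minus that in wild type (edgeR). Levels are CPM without the rule genes, for libraries 1 and 2 in turn.

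Mt1 and Mt2, which encode zinc-binding metallothioneins, had interactions of 1.27 and 1.32. Mt1 was at 1131 and 899 CPM in wild type cells with Mafa and at 2833 and 2076 without, but at 668 and 559 and at 657 and 572 in the knockout. Mt2 stood at 152 and 114 against 398 and 271 in wild type, and at 87.5 and 79.8 against 88.5 and 80.6 in the knockout. Both genes were lower with Mafa than without in wild type (edgeR), and edgeR called neither between the knockout classes.

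Cd81, a tetraspanin of the cell surface, had an interaction of 1.25, with 100.4 and 138 against 322 and 299 in wild type and 381 and 318 against 418 and 359 in the knockout. Fam159b had 0.96, with 104 and 97.48 against 188 and 204 in wild type and 236 and 296 against 239 and 291 in the knockout. Rbp4, a retinol-binding protein that also marks delta cells, had 1.596, with 137 and 54.1 against 332 and 229 in wild type and 87.7 and 54.0 against 90.3 and 52.2 in the knockout. The share of delta cell RNA in these values was not tested, while Sst was limited to under 1% of UMIs in every cell.

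Cox6a2, a cytochrome oxidase subunit, had -1.69, with 51.2 and 135 against 19.9 and 52.7 in wild type and 132 and 161 against 164 and 207 in the knockout. Aldh5a1, an enzyme of GABA breakdown, had -1.58, with 65.8 and 87.1 against 19.2 and 31.0 in wild type and 21.9 and 21.3 against 20.1 and 22.6 in the knockout. Trib3, an ATF4-induced pseudokinase, had -1.005, with 74.8 and 70.6 against 40.4 and 49.96 in wild type and 73.5 and 83.6 against 94.1 and 102 in the knockout. Phgdh, of serine synthesis, had -0.93 and the transcription factor Atf5 -0.63. DESeq2 gave adjusted p-values of 0.0987 for Trib3 and 0.111 for Phgdh, and without WT-1 edgeR gave 0.0871 for Atf5. The other 7 genes were called in every alternative in which they were tested.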

How the results depend on the processing

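Of the values for single named genes under the alternatives, 2127 counted as unchanged, 201 lost a call, 22 gained one, 59 untested values moved and 12 reversed. A called gene counted as unchanged if it kept its call and direction, and an uncalled gene if it stayed uncalled in either direction. Untested values from a single library counted as unchanged if they lay within the SD of the 2 libraries' values. Only called genes could count as reversed. The causes were not tested. Mafa-keeping against Mafa-zero cells called 54 genes with DESeq2, 1216 against all Mafa-zero cells (with Top2a at 0.25, Mki67 at 0.20 and Cdk1 at 0.27), 173 at 3 Mafa UMIs and 166 without the library block. Mafa-keeping cells against wild type called 2070 at 10 Mafa UMIs (with Ppy at -0.43), 1968 without a filter, 2097 higher and 1161 lower by library size alone and 11622 when scaled by cell number, where the median of all genes moved by 1.07, G6pc2 was at 0.052, Pdx1 at 0.59, Nkx6-1 at 0.24, Iapp at 0.34 and Sel1l at 0.63. Mafa-zero cells against wild type called 11991 by cell number, with Kcnj11 at 0.012, Abcc8 at 0.47 and Sel1l at 0.53. The wild type contrast called 102 with DESeq2, 2311 unmatched, 1103 at 10 UMIs, 1066 without doublets, 1282 by library size alone (843 higher, 439 lower), 1116 without a filter and 154 without the block. The difference between genotypes called 17 with DESeq2, 633 unmatched, 210 without a filter, and 32 higher and 51 lower by cell number. Leaving out 1 library gave 0 (without WT-2, edgeR, with 3316 genes at an unadjusted p under 0.05) to 2523 genes for Mafa-keeping cells against wild type, with 389 without WT-1 and 2089 without KO-2. It gave 2627 to 3564 for Mafa-zero cells, and for the difference between genotypes 28 (without WT-1) to 185 (without WT-2), with 149 without KO-2. DESeq2 was not run on these subsets. Contrasts within 1 genotype then have no residual degrees of freedom. The last leave-outs, the crossed block and leaving out cells inside the wild type score range were chosen after seeing the data. In KO-2 the share of Mafa-keeping cells was 7.43% thinned and 8.77% at 100 Mafa CPM, and the median signature share was 13.8% with 20 genes each way. In KO-1 that median was 32.1% without peptide genes.

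Replicate numbers are shared between genotypes, but no label says that they mark a shared origin. Same-numbered deviations correlated at -0.14 for Mafa-keeping and 0.04 for Mafa-zero cells. A replicate block gave 2996 genes for Mafa-keeping and 3679 for Mafa-zero cells against wild type, and the crossed pairing 3606 for the former.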

Other observations

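Of 18 glycolysis genes, 8 were lower and 1 higher in Mafa-keeping cells than in wild type, while 1 of 16 tested was lower and 0 higher (edgeR) than in paired Mafa-zero cells. Of 11 cytosolic heat shock genes, 4 were lower than wild type and 0 higher. Immediate early genes, which respond to cell dissociation, gave 3 higher and 2 lower of 17 against wild type, and 0 higher and 2 lower of 17 against Mafa-zero cells. Of the 13 mitochondrially encoded genes, 1 was higher in Mafa-keeping than in Mafa-zero cells and 0 lower, with a median log2 difference of 0.15. Over all genes, edgeR called 11.5% higher and 11.7% lower against wild type, and 2.31% higher and 2.73% lower against Mafa-zero cells. The immediate early counts against wild type and the mitochondrially encoded count are near these shares and are no result about those lists.

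Genes that earlier results of these data named as raised or lowered in knockout beta cells, and which are therefore no independent evidence, were also counted. Of 20 raised genes, all 20 were higher than wild type in Mafa-keeping cells and 7 were lower than in Mafa-zero cells, with 1 higher. Of 18 lowered genes, 17 were lower than wild type, and 9 of 17 tested were higher than in Mafa-zero cells, with 0 lower.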
